A study of Homo sapiens with 2 samples.

Results

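CRABP1-rich WT cells are a small set of cell barcodes in a culture of H1 (WA01), a widely used line of human embryonic stem cells. They were chosen by 1 gene, CRABP1, which encodes a cellular retinoic acid binding protein. A WT barcode was taken if it held at least 500 unique molecular identifiers (UMIs, each counting 1 captured RNA molecule), at most 20% UMIs of mitochondrially encoded genes, at least 3 CRABP1 UMIs and CRABP1 as at least 0.6% of its UMIs. This chose 101 of the 16468 WT barcodes with at least 500 UMIs, and the other 16367 are called other WT barcodes. Over both libraries of the series, 1683456 barcodes are listed, most of them with few UMIs.

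The series compared H1 cells with a homozygous knockout (KO) of ZNF263, a zinc finger transcription factor, with WT H1 cells. The KO was made with Cas9, both lines were cultured under routine conditions, and each genotype was measured in 1 library by a microwell single-cell method that captures polyadenylated RNA on barcoded beads. The labels do not say whether the KO line is 1 clone or which part of ZNF263 was deleted. ZNF263 had 94 UMIs in KO barcodes of at least 500 UMIs, a level of 8.25 CPM (UMI counts scaled to the total), against 214 UMIs and 15.9 CPM in other WT barcodes, a log2 ratio of -0.95 (interval -1.31 to -0.59). With 1 library per genotype, and with cells of 1 library that are not replicates of a condition, no test was possible and no p-value is given. All intervals are 95% intervals and cover counting error only.

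Human embryonic stem cells hold a pluripotent state through a network that includes OCT4 (encoded by POU5F1), SOX2 and NANOG, and can leave it toward neural fates when cultured. Neural progenitors express intermediate filament and transcription factor genes such as NES and SOX1, and young neurons add neuronal tubulins, neurofilaments and microtubule regulators such as TUBB3, NEFM and STMN2. CRABP1 binds retinoic acid, a signal that patterns the hindbrain and spinal cord and induces HOX genes.

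The members were spread over the depths of the library. They held a median of 770 UMIs (lowest 500, highest 2919) and 526 genes, against a median of 666 UMIs (lowest 500, highest 7884) and 490 genes in other WT barcodes. Mitochondrially encoded genes took a median of 5.42% of UMIs in members and 4.36% in other WT barcodes, and ribosomal protein genes 19.6% in members and 20.2% in other WT barcodes. Doublets were not removed. 2 members (1.98%) and 222 other WT barcodes (1.36%) lay above 4 times the median depth. No member was 1 base from another WT barcode of at least 500 UMIs. All 101 member barcodes also occur in the KO library at some depth, as do 99.0% of all WT barcodes. 4 members (3.96%) and 444 other WT barcodes (2.71%) held at least 500 UMIs in both libraries, and 0 of the 101 passed the CRABP1 rule in KO.

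Under the same rule, 1 of 14169 eligible KO barcodes passed, a share of 0.00706% (Clopper-Pearson interval 0.000179% to 0.0393%), against 101 of 16421 eligible WT barcodes, a share of 0.615% (interval 0.501% to 0.747%). The KO barcode had a CRABP1 share of 0.745% of its UMIs. Had every barcode drawn CRABP1 at its library's average level, 0.168 KO barcodes and 3.78 WT barcodes would be expected to pass. The WT share was 0.475% (49 of 10311) at 500 to under 750 UMIs, 0.850% (27 of 3175) at 750 to under 1000 UMIs, 0.697% (13 of 1864) at 1000 to under 1500 UMIs and 1.12% (12 of 1071) at 1500 UMIs and more. The rule therefore found members at every depth.

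**Figure D1:**
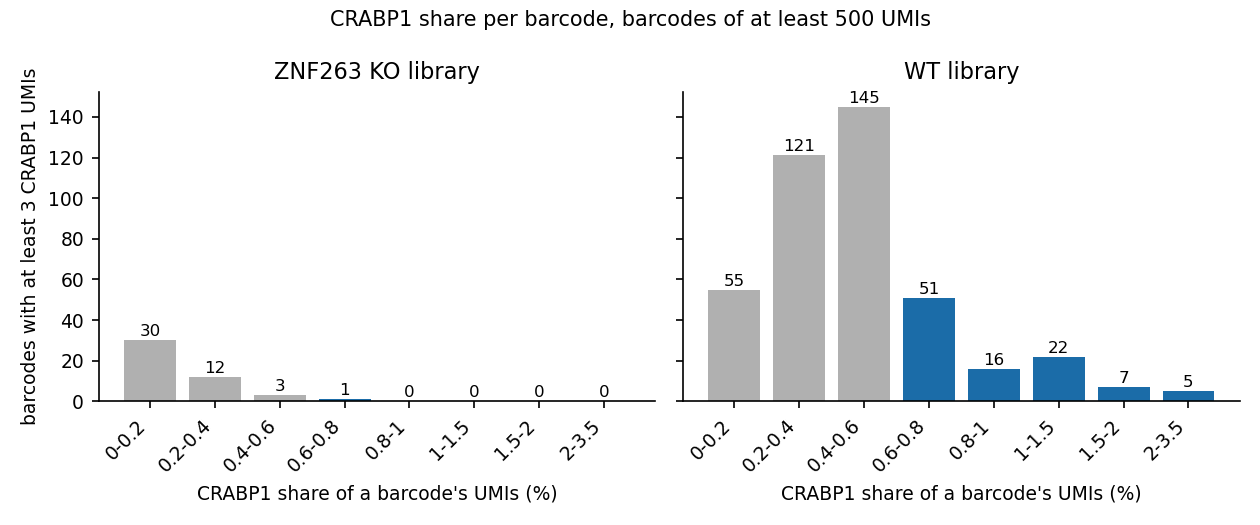
Number of barcodes (vertical axis) by the CRABP1 share of their UMIs in percent (horizontal axis), for barcodes of at least 500 UMIs with at least 3 CRABP1 UMIs, KO library left and WT library right. Blue bars pass the rule and grey bars do not. The WT library had 101 barcodes in blue and the KO library 1, and the WT counts run without a gap across the threshold, with 145 barcodes at 0.4% to 0.6% and 51 at 0.6% to 0.8%.

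CRABP1 itself chose the members. Its level is not compared below and its UMIs are left out of the totals, and it is used further only to group barcodes. The remaining genes were read in the same barcodes and libraries that chose the members, so the values below describe these barcodes and test nothing. UMIs were summed over the members (91511 in all) and over the other WT barcodes (13458668) and scaled to CPM. A log2 ratio is of the level in members over that in other WT barcodes. A level of 3 UMIs in the members' sum corresponds to 32.8 CPM, and values at or below it rest on 0 to 3 UMIs.

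The label of the cells as neural-like was checked with the 6 other genes given as their markers, which were picked from earlier results of these data and are not independent of them. All 6 were higher in the members. NEFM, the medium neurofilament subunit (chromosome 8, 24913761 to 24919093, GRCh38), had 0 to 21 UMIs per member with a median of 1, against 0 to 11 with a median of 0 in other WT barcodes. Its summed level was 2568 CPM in members, against 201 CPM in other WT barcodes, 12.8-fold higher (interval 11.1 to 14.6). MIAT, a long noncoding RNA (chromosome 22, 26646429 to 26676478), was at 2459 CPM in members and 235 CPM in other WT barcodes, a log2 ratio of 3.39 (interval 3.19 to 3.58). It was unevenly spread: 44 members held a MIAT UMI and 1 of them held 47 of the 225 UMIs. Without that barcode the log2 ratio of MIAT was 3.08.

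ONECUT2, a homeobox transcription factor of developing neurons (chromosome 18, 57435374 to 57491298), was 32.3-fold higher (interval 20.5 to 49.3), from 27 UMIs in 21 members and 123 UMIs in 117 other WT barcodes. NR2F1, a COUP-type nuclear receptor of brain development (chromosome 5, 93583222 to 93594611), was at 350 CPM in members and 47.2 CPM in other WT barcodes, a log2 ratio of 2.89 (interval 2.33 to 3.40). IGFBP5, an insulin-like growth factor binding protein (chromosome 2, 216672105 to 216695549), had a log2 ratio of 2.54 (interval 2.05 to 2.99). PRTG, the cell surface protein protogenin (chromosome 15, 55611544 to 55743152), had the smallest difference of the 6, at 1344 CPM in members and 393 CPM in other WT barcodes, a log2 ratio of 1.77 (interval 1.51 to 2.03). For each of the 6 genes the per-barcode counts of members and other WT barcodes overlapped, since every gene was at 0 in at least 37 members.

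Detection per barcode was compared at 450 randomly drawn UMIs of each barcode, and 0 barcodes were too shallow for this. A NEFM UMI was then present in 54.5% of members (interval 44.2% to 64.4%) and 8.72% of other WT barcodes, and without thinning in 63.4% of members and 13.6% of other WT barcodes. The pooled profile of WT barcodes with 10 to 100 UMIs stands in for free RNA and for cells too shallow to keep. It would give 9.70% for NEFM, so at 1 or more UMIs the share in other WT barcodes was no higher than that background. At 2 or more NEFM UMIs that share was above the background, as it was at 3 or more, with 0.128% against 0.0163%. For MIAT the thinned shares were 36.6% of members and 9.98% of other WT barcodes. The latter was again below the background at 1 or more UMIs, but above it at 2 or more, at 1.04% against 0.652%. How much of the NEFM and MIAT signal in other WT barcodes is free RNA was not tested. At least 2 of the 6 markers were found in 52.5% of members (53 of 101, interval 42.3% to 62.5%) and in 6.02% of other WT barcodes. No marker was found in 23 members, or 22.8%.

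**Figure D2:**
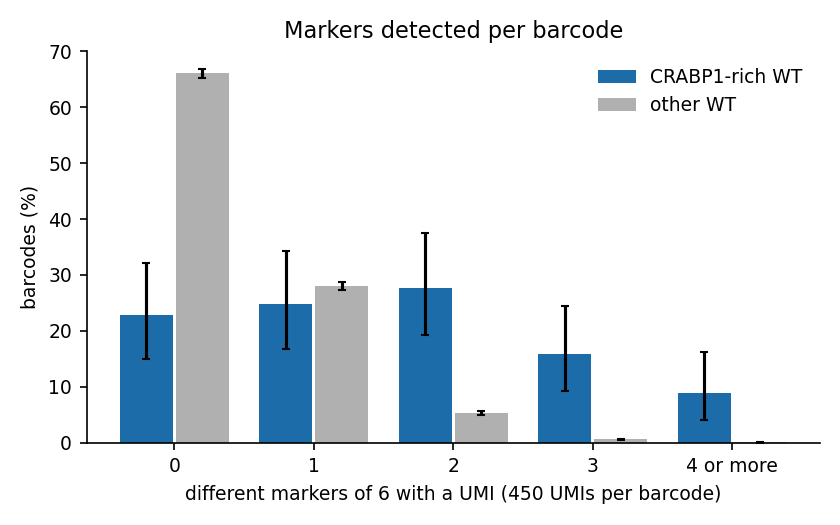
Share of barcodes in percent (vertical axis) by how many different genes of the 6 markers had a UMI (horizontal axis) after thinning to 450 UMIs, with 101 CRABP1-rich WT barcodes in blue and 16367 other WT barcodes in grey. Bars are shares and error bars exact 95% binomial intervals. At 2 or more markers the members reach 52.5% and the other WT barcodes 6.02%, and at 0 markers the members stand at 22.8% and the other WT barcodes at 66.0%.

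The upstream bases of 3 of these marker genes are shown because ZNF263, the gene knocked out in the other library, is a DNA-binding factor reported to prefer sequences that hold GGAGGA. They come from RefSeq, build GRCh38.p14, and cover the 250 bases before each gene's start, 5′ to 3′ on the gene's strand, with capitals where GGAGGA or its reverse complement TCCTCC occurs. ONECUT2 had the highest ratio, IGFBP5 the most matches and PRTG none, and the set was chosen after the matches were seen.
ONECUT2, chr18:57435124-57435373, plus strand: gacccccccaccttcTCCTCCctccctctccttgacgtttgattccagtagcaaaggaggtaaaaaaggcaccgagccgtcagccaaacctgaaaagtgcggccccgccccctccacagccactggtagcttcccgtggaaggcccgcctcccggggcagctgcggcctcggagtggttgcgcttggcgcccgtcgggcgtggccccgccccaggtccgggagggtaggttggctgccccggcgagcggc
IGFBP5, chr2:216695550-216695799, minus strand: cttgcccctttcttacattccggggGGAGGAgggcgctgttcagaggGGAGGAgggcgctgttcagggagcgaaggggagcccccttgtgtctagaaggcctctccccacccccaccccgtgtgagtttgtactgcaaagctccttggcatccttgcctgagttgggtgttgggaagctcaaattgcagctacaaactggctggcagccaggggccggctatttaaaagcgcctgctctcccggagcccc
PRTG, chr15:55743153-55743402, minus strand: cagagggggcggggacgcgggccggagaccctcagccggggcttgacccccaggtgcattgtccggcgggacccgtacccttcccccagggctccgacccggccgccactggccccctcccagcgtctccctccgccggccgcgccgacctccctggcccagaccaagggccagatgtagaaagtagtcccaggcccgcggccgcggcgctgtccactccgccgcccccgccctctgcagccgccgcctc
Over windows of 300 bases that reach 50 bases into the gene, 1 or more matches on either strand were found in 4 of the 5 marker genes that had an entry. They were found in 4 of 11 entries of the 15 highest genes described next, in 7 of 11 of the 15 lowest, in 40.5% of 1166 measured genes with an entry and in 36.1% of all 27305 promoters. A match is a run of letters and was not shown to be bound.

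Across all genes, 1502 were measured, meaning that their level pooled over WT barcodes would give at least 10 UMIs in the members. Of these, 19 were at least 2-fold higher in the members, 1.26% of those measured, and 58 were at least 2-fold lower, 3.86%. These counts move with the settings: 5 higher and 26 lower at a minimum of 1000 UMIs, 2 and 23 at a CRABP1 share of 1%, and 4 and 26 without members that hold a MIAT UMI. They were 7 and 13 at a minimum of 20 expected UMIs per gene and 54 and 219 at one of 5, from fewer or more genes measured. A gene near the minimum can pass 2-fold by counting error alone, and the share of such genes in these counts was not tested. Of the 1502 genes, 582 (38.7%) were higher and 920 (61.3%) lower in members by any amount. The median log2 ratio was -0.10 and the central 95% of genes lay from -1.14 to 0.73. The typical half-width of an interval was 0.69 on the log2 scale. The genes named here are those whose intervals lay farthest from no difference.

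The 15 highest measured genes included several of the neuronal cytoskeleton. TUBB3, the tubulin used as a marker of neurons, was at 524 CPM in members and 169 CPM in other WT barcodes, a log2 ratio of 1.63 (interval 1.19 to 2.04). TUBA1A, an alpha-tubulin abundant in developing brain, was at 2765 CPM in members and 1135 CPM in other WT barcodes, a log2 ratio of 1.28. MAP1B, a microtubule-associated protein of growing axons, had a ratio of 1.36 on the log2 scale, and the neural progenitor filament gene NES one of 1.07. Among secreted and binding proteins, PTN, the growth factor pleiotrophin, was at 1814 CPM in members and 814 CPM in other WT barcodes, a log2 ratio of 1.16 (interval 0.93 to 1.38). IGFBP2, another insulin-like growth factor binding protein, was at a log2 ratio of 1.54. NNAT, the imprinted gene neuronatin, was at 798 CPM in members and 223 CPM in other WT barcodes, a log2 ratio of 1.84 (interval 1.48 to 2.17). Beside NEFM, MIAT and PRTG, the 15 also held GLUL, the glutamine synthetase gene, IGDCC3, SH3BGRL3 and MLLT11, with log2 ratios between 1.23 and 1.47. Tubulin genes are close paralogs, and how the counting treated reads that match several of them is not given in the sources used here.

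At the other end, L1TD1 and POU5F1B, both tied to the pluripotent state, lay farthest from no difference by interval bound among the 15 lowest measured genes. POU5F1, SALL4, TDGF1, SOX2 and NANOG, also given here, were not among the 15. L1TD1, an RNA-binding protein gene abundant in human embryonic stem cells, was at 601 CPM in members and 1394 CPM in other WT barcodes, a log2 ratio of -1.21 (interval -1.62 to -0.83). After thinning, an L1TD1 UMI was found in 19.8% of members and 44.5% of other WT barcodes, beside 45.3% in the background profile. POU5F1B, a near-identical copy of POU5F1, had 6 UMIs in members, 65.6 CPM against 293 CPM in other WT barcodes, a log2 ratio of -2.16 (interval -3.61 to -1.04). POU5F1 had 4 UMIs in members, at 43.7 CPM against 46.3 CPM in other WT barcodes, and a log2 ratio of -0.08 (interval -1.96 to 1.28). The 2 genes share reads, so the split between them is uncertain. SALL4, a zinc finger factor of the pluripotency network, was lower at a log2 ratio of -1.69 (interval -3.57 to -0.34). TDGF1, the NODAL co-receptor, had 5 UMIs in members and a log2 ratio of -1.56 (interval -3.19 to -0.34). SOX2, which pluripotent cells share with neural progenitors, was at 339 CPM in members and 344 CPM in other WT barcodes, with a log2 ratio of -0.02 and an interval of -0.58 to 0.49. NANOG had 0 UMIs in members, with an interval of 0 to 40.3 CPM that includes the 15.8 CPM of other WT barcodes.

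The other genes of the 15 lowest have various roles. TPM1, a tropomyosin, was at 240 CPM in members and 566 CPM in other WT barcodes, a log2 ratio of -1.23 (interval -1.91 to -0.63). KRT18, a keratin of simple epithelia, had a log2 ratio of -1.14 (interval -2.01 to -0.39). TCF7L1, a WNT-pathway repressor expressed in stem cells, had 3 UMIs in members and a log2 ratio of -2.01 (interval -4.29 to -0.46). RARRES2, EBNA1BP2, RBPMS, MAP4, PUM3, UXT, DKC1, TUBB2A (a beta-tubulin, lower where TUBB3 was higher) and UGP2 were also among the 15, with log2 ratios from -2.39 to -0.76 and between 2 and 48 UMIs in members.

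**Figure D3:**
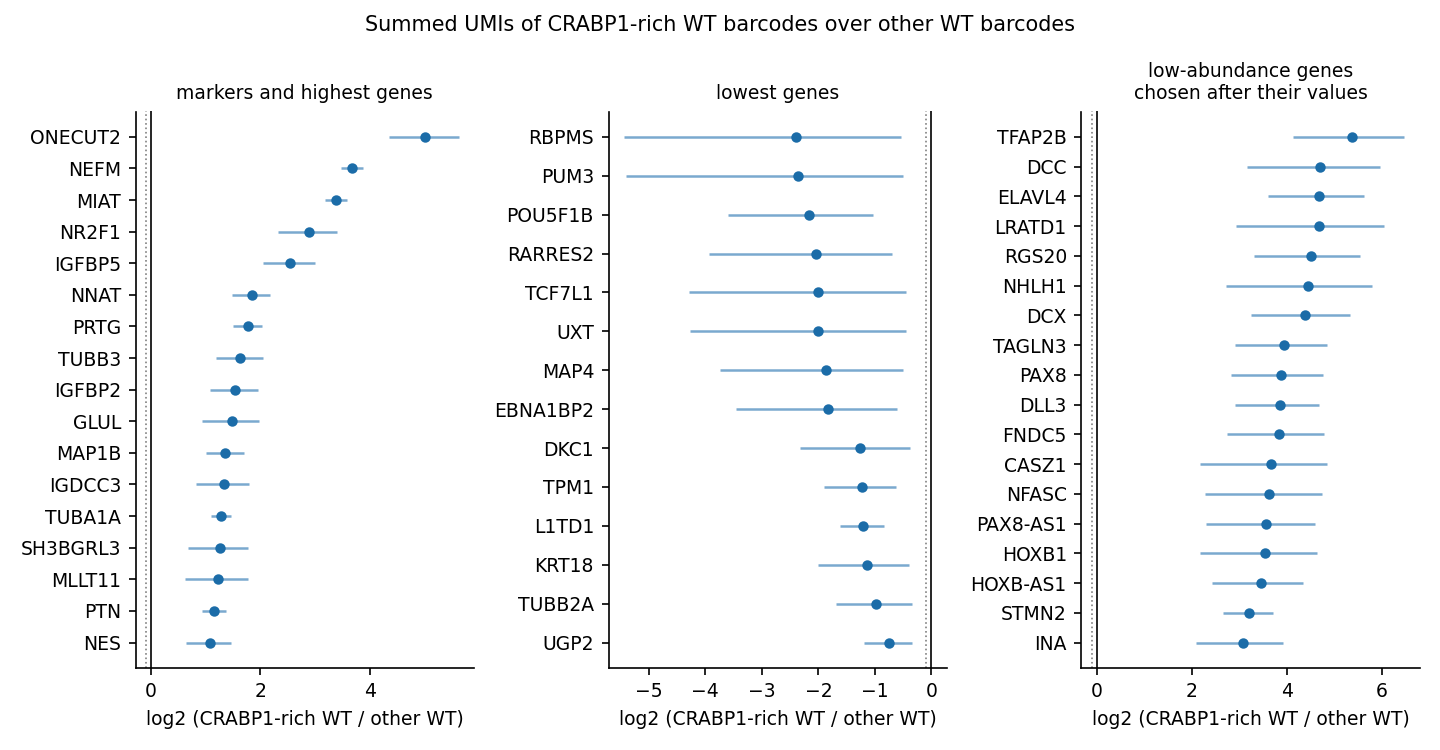
Log2 ratio of the summed UMI level in CRABP1-rich WT barcodes over other WT barcodes (horizontal axis) for single genes (rows), with points for the ratio and bars for the exact 95% counting interval. The left panel holds the 6 markers and genes of the 15 highest, the middle panel genes of the 15 lowest and the right panel 18 low-abundance genes chosen after their values were seen. The solid line marks no difference and the dotted line the median of measured genes at -0.10, and ONECUT2 stands farthest right in the left panel at 5.01.

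Gene groups showed the same contrast in their sums. The core pluripotency list (30 genes) summed to 5726 CPM in members and 7863 CPM in other WT barcodes, a log2 ratio of -0.46 (interval -0.58 to -0.33). Of its 17 measured genes, 15 were lower in members and 2 higher, 3 were at least 2-fold lower (L1TD1, SALL4, TDGF1) and 1 was at least 2-fold higher, beside 61.3% of all measured genes that were lower, with 3.86% of all lower by 2-fold or more and 1.26% higher by 2-fold or more. The one higher gene past 2-fold was ZIC2, a zinc finger factor that is also active in early neural tissue, with a log2 ratio of 1.12 (interval 0.56 to 1.63). The median of the 17 was -0.48, against -0.10 for all measured genes. The list was at 7824 CPM in the background profile of shallow barcodes. DPPA4 and LIN28A, both high in stem cells, had log2 ratios of -0.49 and -0.30.

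The neural progenitor list (25 genes found) summed to 5212 CPM in members and 3079 CPM in other WT barcodes, a log2 ratio of 0.76 (interval 0.63 to 0.89). Of its 5 measured genes 4 were higher in members, 2 of them at least 2-fold (NES and PTN), beside 38.7% of all measured genes higher and 1.26% at least 2-fold higher. SOX11, a factor of differentiating neural cells, had a log2 ratio of 0.81 and FABP7, a fatty acid binding protein of radial glia, one of 0.23 with an interval from -0.58 to 0.93. The 20 genes of the list below the minimum together had 128 UMIs in members and a log2 ratio of 1.14 (interval 0.88 to 1.39). Of these 20, 16 were higher in members and 2 had 0 UMIs. Single genes below the minimum were chosen after their values were seen. POU3F2, a neural POU-domain factor, had 13 UMIs and a log2 ratio of 1.80 (interval 0.88 to 2.58). SOX3 had 7 UMIs and a log2 ratio of 2.74 (interval 1.40 to 3.82). NCAM1, the neural cell adhesion molecule, had 12 UMIs and a log2 ratio of 2.50 (interval 1.53 to 3.32). PAX6, a defining factor of forebrain-type progenitors in human cultures, had 0 UMIs in members, and SOX1 had 3 (log2 ratio 2.22, interval -0.09 to 3.81). PAX6 was at 13.2 CPM in other WT barcodes, below what 91511 UMIs can show.

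The neuronal differentiation list (31 genes) summed to 3847 CPM in members and 2317 CPM in other WT barcodes, a log2 ratio of 0.73 (interval 0.58 to 0.88). Its 4 measured genes went both ways. TUBB3 was higher, while DPYSL3 (0.01), TUBB2B (-0.05) and UCHL1 (-0.20) had log2 ratios near 0 and were already at 585 to 635 CPM in other WT barcodes. The other 27 genes lay below the minimum and together were 5.29-fold higher (144 UMIs in members, interval 4.45 to 6.25), with 17 of them seen in members and 10 at 0. STMN2, a microtubule regulator of growing axons, had 34 UMIs in 16 members and a log2 ratio of 3.21 (interval 2.66 to 3.71). The neurofilament genes NEFL and INA had log2 ratios of 2.05 and 3.07. DCX, doublecortin of migrating neurons, had 10 UMIs in 9 members and a log2 ratio of 4.37 (interval 3.25 to 5.33), and ELAVL4, a neuronal RNA-binding protein, 11 UMIs in 10 members and a log2 ratio of 4.68. DLL3, a NOTCH ligand of newborn neurons, had 13 UMIs in 11 members and a log2 ratio of 3.85. Outside the list, and chosen after their values were seen, TAGLN3, DCC (the netrin receptor of growing axons), NHLH1, NFASC, RGS20, CASZ1, LRATD1, FNDC5, PAX8 and PAX8-AS1 had 5 to 11 UMIs in members and log2 ratios from 3.56 to 4.70. PAX8 and PAX8-AS1 overlap, and without strand information their reads cannot be told apart. The neuronal transcription factor genes NEUROG1, NEUROG2, NEUROD1, ISL1 and POU4F1 had 0 UMIs in members.

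At a single barcode these genes were sparse. After thinning, 72.3% of members (interval 62.5% to 80.7%) and 63.4% of other WT barcodes held a UMI of any of the 31 genes, where the background profile gives 64.6%. At 3 or more such UMIs the shares were 26.7% of members and 8.79% of other WT barcodes.

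Genes of hindbrain and spinal cord identity were low but higher in members. The list of 21 genes had 43 UMIs in members, at 470 CPM against 114 CPM in other WT barcodes, a log2 ratio of 2.05 (interval 1.57 to 2.48). HOX genes carried part of it. HOXB paralogs 1 to 4, the anterior HOXB genes, had 19 UMIs in members and 240 in other WT barcodes, 11.6-fold higher (interval 6.89 to 18.6). HOXB1 had 7 UMIs in members and HOXB2 had 4, and without thinning 8 members held a HOXB3 UMI. HOXB4 had 0 UMIs in members and was at 0.446 CPM in other WT barcodes, so this 0 was not informative. HOXB paralogs 5 to 13, the HOXC cluster and the HOXD cluster had 0 UMIs in members, and the HOXA cluster had 2 UMIs. In other WT barcodes these 3 groups at 0 were at 1.26 to 2.30 CPM, so their absence from members was not informative at this depth. HOXB-AS1 had 11 UMIs and a log2 ratio of 3.46, and without strand information its reads cannot be told apart from those of the HOXB genes it overlaps. The forebrain and midbrain list had 14 UMIs in members, with a log2 ratio of 0.36 and an interval of -0.52 to 1.11.

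The neural crest and placode list (18 genes) had 33 UMIs in members, at 361 CPM against 89.1 CPM in other WT barcodes, a log2 ratio of 2.02 (interval 1.47 to 2.52). TFAP2B, an AP-2 factor of neural crest and sensory neurons, had 9 UMIs in 6 members and a log2 ratio of 5.37 (interval 4.12 to 6.47). PAX3, a factor of the dorsal neural tube and crest, had 6 UMIs and a log2 ratio of 2.43 (interval 0.96 to 3.58), and TFAP2A had 3 UMIs (log2 ratio 4.62, interval 2.21 to 6.39). SOX10, a defining neural crest gene, had 0 UMIs in members and was at 0.892 CPM in other WT barcodes.

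**Figure D4:**
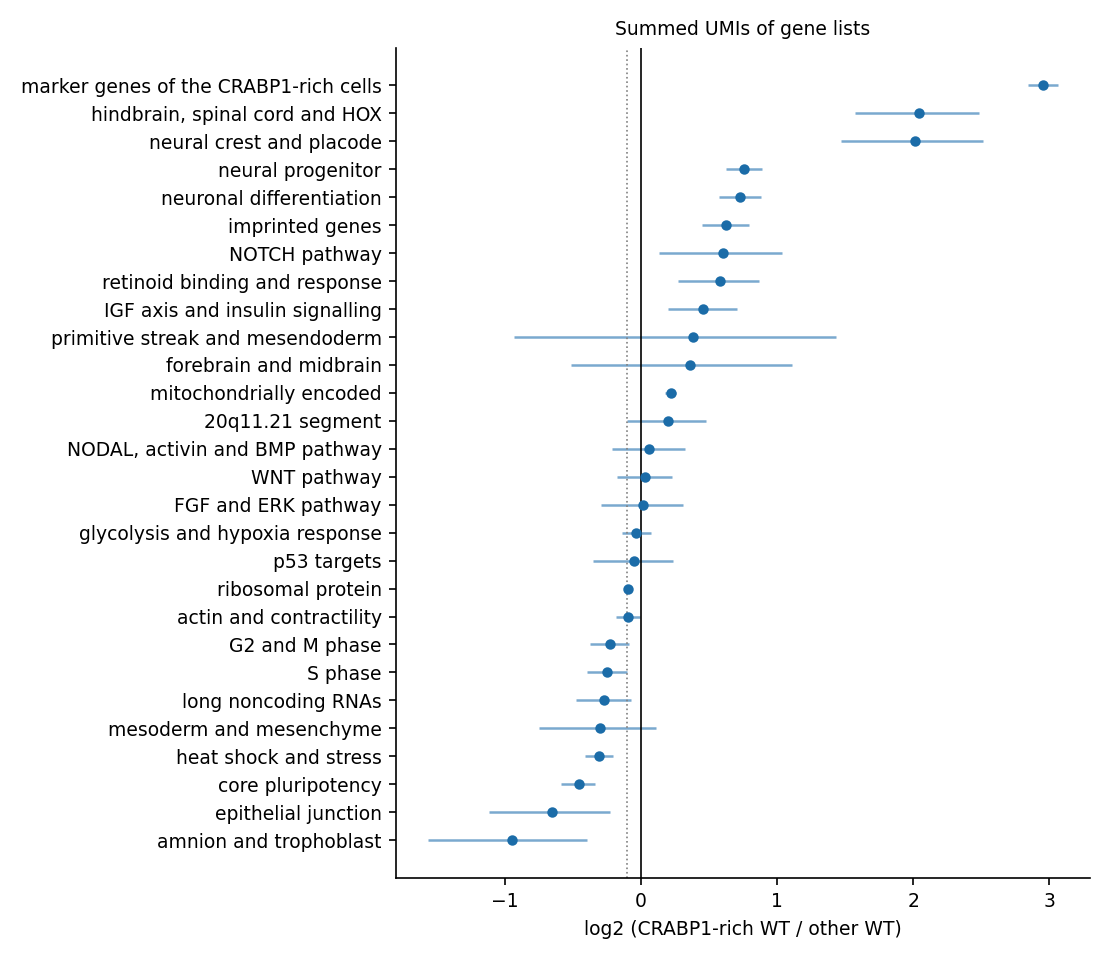
Log2 ratio of the summed UMI level of each gene list (rows) in CRABP1-rich WT barcodes over other WT barcodes (horizontal axis), with points for the ratio and bars for the exact 95% counting interval. Lists with under 5 UMIs in members are left out, the solid line marks no difference and the dotted line the median of measured genes at -0.10. Marker, hindbrain and neural crest lists stand at the top with 2.96, 2.05 and 2.02, and the amnion and trophoblast list at the bottom with -0.95.

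Lists of other embryonic cell types were mostly rare or no higher in members, with wide intervals. The endoderm list (12 genes) had 2 UMIs in members with 10 genes at 0, SOX17 among them, and a log2 ratio of -0.29 (interval -3.34 to 1.57). The primitive streak and mesendoderm list had 7 UMIs with 9 of 13 genes at 0, among them TBXT, the brachyury gene, and stood at 76.5 CPM in members and 58.6 CPM in other WT barcodes, a log2 ratio of 0.38 (interval -0.94 to 1.43). The blood and endothelium list had 3 UMIs with 14 of 16 genes at 0, at 32.8 CPM in members and 17.8 CPM in other WT barcodes, a log2 ratio of 0.88 (interval -1.40 to 2.45). The mesoderm and mesenchyme list had 47 UMIs in members, at 514 CPM against 633 CPM in other WT barcodes, with 14 of 23 genes at 0. The amnion and trophoblast list was lower in members, at 284 CPM against 549 CPM in other WT barcodes, a log2 ratio of -0.95 (interval -1.57 to -0.40). The epithelial junction list was at a log2 ratio of -0.66 (interval -1.12 to -0.23), and EPCAM, an epithelial adhesion molecule of stem cells, one of -1.40 (interval -3.28 to -0.04) from 4 UMIs.

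Cell cycle lists had ratios slightly below 0. The S phase list was at a log2 ratio of -0.25 (interval -0.39 to -0.11) and the G2 and M phase list at one of -0.23 (interval -0.38 to -0.09). Without members that hold a MIAT UMI the G2 and M phase ratio was 0.064, with the opposite sign. MCM4, a subunit of the replicative helicase, was at 153 CPM in members and 315 CPM in other WT barcodes, and TOP2A, the mitotic topoisomerase, at 328 CPM in members and 576 CPM in other WT barcodes. MKI67, a proliferation marker, went the other way at 197 CPM in members and 179 CPM in other WT barcodes, a log2 ratio of 0.13 (interval -0.62 to 0.80).

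Levels were also set out by CRABP1 content, which is the measure the rule used, so these values are a description. NEFM was at 176 CPM in WT barcodes with 0 CRABP1 UMIs, 203 CPM at 1 UMI, 284 CPM at 2 UMIs and 514 CPM in barcodes with 3 or more UMIs outside the rule. Within the members it was at 2250 CPM at a CRABP1 share of 0.6% to under 1% (67 barcodes), 3080 CPM at 1% to under 2% (29 barcodes) and 4723 CPM at 2% and more (5 barcodes). L1TD1 ran the other way, at 1402, 1407, 1410 and 1078 CPM in the 4 sets outside the rule and at 734, 338 and 0 CPM in the 3 sets of members. The last of these L1TD1 values rested on 0 UMIs, with an interval of 0 to 968 CPM. TUBB3 was at 157 to 182 CPM in the 4 sets outside and at 359, 760 and 1837 CPM in the members. For other genes an order could not be read, because the last set held 1 UMI or 0 UMIs of each. ONECUT2 was at 281, 338 and 262 CPM in the 3 sets of members (last interval 6.64 to 1462 CPM). IGFBP5 was at 375, 675 and 262 CPM (same last interval), and NR2F1 at 359, 380 and 0 CPM (last interval 0 to 968 CPM). PRTG was also lowest at the top, with 1359, 1477 and 262 CPM in members, the last value resting on 1 UMI. PTN was also lower in the 5 highest members (525 CPM, 2 UMIs) than in the other 2 sets of members (1906 and 1772 CPM).

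**Figure D5:**
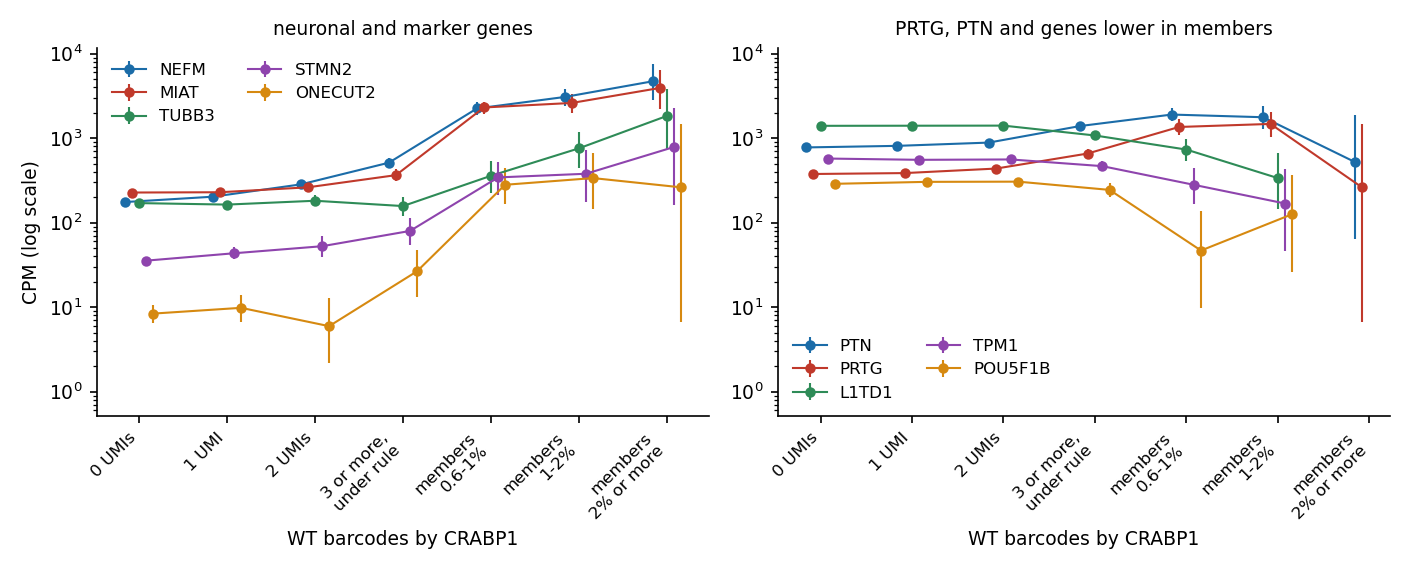
Summed level in CPM on a log axis (vertical) of WT barcodes grouped by CRABP1 content (horizontal), from 0 UMIs to members with a CRABP1 share of 2% or more. Points are levels and bars exact 95% Poisson intervals, and sets at 0 UMIs have no point. NEFM runs from 176 CPM in the first set to 4723 CPM in the last, while L1TD1 runs from 1402 CPM to 338 CPM and then to 0 UMIs.

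Barcodes just inside and just outside the threshold had overlapping intervals for 20 of the 22 genes and lists set side by side. The exceptions were the sum of the 6 markers, at 4913 CPM inside (interval 4052 to 5902) and 3179 CPM outside (interval 2711 to 3705), and the G2 and M phase list, at 6680 CPM inside (interval 5669 to 7818) and 4963 CPM outside (interval 4374 to 5610). The 24 members with a CRABP1 share of 0.6% to under 0.7% (median 698.5 UMIs) had NEFM at 1465 CPM (interval 1015 to 2047). The 71 WT barcodes with 3 or more CRABP1 UMIs at 0.5% to under 0.6% (median 568 UMIs) had it at 892 CPM (interval 653 to 1190). Depth thus differs between these sets, and with so few barcodes an overlap of intervals does not show that they are alike. L1TD1 was at 560 CPM in the barcodes just inside and 775 CPM in those just outside, and PTN at 2155 CPM inside and 1784 CPM outside. TUBB3 was at 172 CPM inside and 194 CPM outside, near the 169 CPM of all other WT barcodes.

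Members also differed among themselves, as splits by the presence of 1 gene show. These splits were made after the values were seen. The 44 members with a MIAT UMI had a median of 911.5 UMIs and the 57 without one 655 UMIs, so that depth moves with the split, and its part was not tested. NEFM was at 3728 CPM in members with a MIAT UMI and 1346 CPM in members without, and PTN was at 1278 CPM with and 2379 CPM without. The G2 and M phase list was at 3408 CPM with and 5318 CPM without. The 16 members with a STMN2 UMI had a neuronal differentiation sum of 9524 CPM, STMN2 included, against 2778 CPM in the 85 without. MIAT was at 6004 CPM in members with a STMN2 UMI and 1792 CPM in members without. PRTG was at 690 CPM in members with a STMN2 UMI and 1467 CPM in members without. The core pluripotency sum was at 6970 CPM with and 5492 CPM without a STMN2 UMI, and the L1TD1 level at 1104 CPM with and 506 CPM without, so members with a STMN2 UMI were not those with the lowest L1TD1.

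The same rule was then applied to other genes in place of CRABP1. NEFM at 3 or more UMIs and 0.6% of UMIs chose 0 KO barcodes and 23 WT barcodes, of which 12 were CRABP1-rich, 52.2% of the 23 and 11.9% of the 101. MIAT chose 2 KO barcodes and 18 WT barcodes, of which 10 were CRABP1-rich, 55.6% of the 18 and 9.90% of the 101. PRTG chose 0 KO barcodes and 14 WT barcodes, and 0 of the 14 were CRABP1-rich. IGFBP5 chose 2 WT barcodes and NNAT 1, none of them CRABP1-rich or in KO. STMN2, TUBB3, NR2F1 and ONECUT2 chose 0 barcodes in either library. At 3 or more UMIs and 0.6% of UMIs, the sum of the neuronal differentiation list chose 308 KO barcodes (2.17%) and 608 WT barcodes (3.70%), and 23 of the 608 were CRABP1-rich, 22.8% of the 101.

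The members hold 0.675% of the UMIs of WT barcodes of at least 500 UMIs, but 18% of the ONECUT2 UMIs, 7.99% of the NEFM UMIs, 6.64% of the MIAT UMIs and 5.91% of the STMN2 UMIs. Several of these genes were also lower in all KO barcodes than in WT barcodes that are not members. NEFM was at 79.7 CPM in KO barcodes and 201 CPM in other WT barcodes, a log2 ratio of KO over other WT of -1.34 (interval -1.45 to -1.23). For PRTG the levels were 78.4 CPM in KO and 393 CPM in other WT barcodes, a log2 ratio of -2.32, and for NR2F1 they were 7.98 CPM in KO and 47.2 CPM in other WT barcodes, a log2 ratio of -2.56. PTN was at 338 CPM in KO and 814 CPM in other WT barcodes, and STMN2 at 12.1 CPM in KO and 40.2 CPM in other WT barcodes. MIAT was at 261 CPM in KO and 235 CPM in other WT barcodes, and TUBB3 at 168 CPM in KO and 169 CPM in other WT barcodes. L1TD1 was higher in KO, at 1888 CPM against 1394 CPM in other WT barcodes. Genotype, culture and library cannot be told apart in these values.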

How the data were processed

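Single-cell RNA of 1 KO and 1 WT library of H1 cells was measured. The authors deposited raw UMI counts (whole numbers, not scaled) for every gene in every barcode. The tools listed in the submitters' processing notes are STAR 2.7.10a, Subread, featureCounts 2.0.1 and UMI-tools 1.1.2, and the listed build is hg38. Annotation, strand setting and barcode filter: not given in the sources used here. The WT library held 60578040 UMIs over 842407 barcodes and the KO library 54559376 UMIs over 841049. The KO table has 15 entries beyond its stated size, which were kept.

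The members, the 28 written gene lists and 2 lists by symbol pattern (ribosomal protein and mitochondrially encoded genes), and the markers were chosen with earlier results of these data known. Of 604 list entries 595 matched a symbol. UMIs were summed over barcodes and scaled to CPM without CRABP1, with exact Poisson intervals for levels, exact conditional binomial intervals for ratios and Clopper-Pearson intervals for shares. No p-value was computed, because each genotype has 1 library. Thinning to 450 UMIs used seed 11. Genes were named if they were markers, POU5F1, NANOG, SOX2 or ZNF263, among the 15 highest or 15 lowest by interval bound, or among the 4 largest ratios of a list. The 15 highest and 15 lowest also had to keep their direction under every planned choice that gives gene ratios. The planned choices on the minimum of expected UMIs and on thinning give none. The 20 low-abundance genes with at least 5 UMIs in members and the highest lower bound (18 plotted, beside ONECUT2 and NR2F1), and other genes below the minimum, were chosen after their values were seen. Doublets were not removed. Some genes that meet these rules are not reported here. Coordinates are from RefSeq (GRCh38).

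On simulated counts for the comparison of members with other WT barcodes, coverage of the 95% intervals was 98% over 50 genes at 0.25-fold and also at 0.5-fold, 96% over 50 genes each at 2-fold and 4-fold, and 96.0% over 1301 unchanged genes. The counts were Poisson draws at pooled levels, the model that the intervals assume, without differences between barcodes. This coverage therefore checks the calculation only and does not cover UMIs that cluster in single barcodes. There were 13 planned and 5 added processing choices. Python 3.11.15, NumPy 2.4.6, SciPy 1.17.1, pandas 2.3.3 and matplotlib 3.10.9 were used.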

Additional observations from a re-analysis of the deposited data

Results flagged for a closer look

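WT barcodes of 100 to under 500 UMIs were left out of every comparison. Of 111073 KO barcodes at this depth 14 passed the CRABP1 rule (0.0126%, interval 0.00689% to 0.0211%), against 206 of 121234 WT barcodes (0.170%, interval 0.148% to 0.195%). Drawing CRABP1 at each library's average level would give 5.27 KO and 70.6 WT barcodes. At this depth 3 CRABP1 UMIs alone always reach 0.6%, so the share rests on the count of 3.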

How the results depend on the processing

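No paired analysis was possible because each genotype has 1 library and no test was run. Besides the 13 planned choices, those on MIAT, on barcodes shared between libraries and on barcodes with 0 CRABP1 UMIs were chosen after seeing the data. With a minimum of 1000 UMIs, the share passing the rule was 0% in KO and 0.852% in WT, with 5 genes at least 2-fold higher and 26 lower. At a CRABP1 share of 1% it was 0% in KO and 0.207% in WT, with 2 genes higher and 23 lower, a core pluripotency log2 ratio of -0.69, a neuronal differentiation ratio of 0.93 and 82.4% of members with a neuronal UMI. At 0.4% the WT share was 1.498%, with 33 genes higher and a neuronal ratio of 0.40. At 5 CRABP1 UMIs the WT share was 0.487%. A minimum of 20 expected UMIs left 7 genes higher and 13 lower, and one of 5 gave 54 and 219, from fewer or more genes measured. Without thinning 85.1% of members held a neuronal UMI. Without members that hold a MIAT UMI, 4 genes were higher and 26 lower, and the log2 ratios were -0.61 for core pluripotency and 0.42 for neuronal differentiation. Counting barcodes 1 mismatch apart once could change no value, because 0 WT barcodes of at least 500 UMIs had such a neighbour. Of 1970 values of named genes and lists under 14 alternatives, that one included, 1874 kept their sign. Of the rest, 91 belong to genes or lists whose interval includes 0, and the other 5 are these: the log2 ratio changed sign for the actin and contractility list (to 0.0043) and the ribosomal protein list (to 0.0087) when the median gene was set to 0, for the G2 and M phase list (to 0.064) without members that hold a MIAT UMI, for HSPE1 (to 0.0062) at 0.4% and for PKM (to -0.29) at 1%. The other 75 of 99 values of the main results moved by less than their own limits or could not move. The thinned share of members with a neuronal UMI, for example, cannot change where only the other WT barcodes or the scaling change. The cause of the changes was not tested. Depth limits single genes: 3 UMIs in the members equal 32.8 CPM.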

Other observations

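Some gene groups outside the neural lists also differed in the members. The imprinted list had a log2 ratio of 0.63 (interval 0.45 to 0.80), with NNAT highest and GNAS at 0.31. The retinoid binding and response list had one of 0.58 (interval 0.27 to 0.87): CRABP2 had 11 UMIs and a ratio of 0.69 (interval -0.32 to 1.53), and 11 of 20 genes had 0 UMIs. The NOTCH list was at 0.60 (interval 0.13 to 1.03) and the IGF axis and insulin signalling list at 0.46 (interval 0.20 to 0.71), led by IGFBP2. The heat shock and stress list was at -0.31 (interval -0.41 to -0.20), with HSP90AB1 at -0.42. Mitochondrially encoded genes were at 0.22 (interval 0.18 to 0.26), with MT-ND1 at 0.53.

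The long noncoding RNA list was at -0.27 (interval -0.48 to -0.07), with SNHG5 at -0.55. Among the remaining lists the log2 ratios were WNT 0.03, NODAL, activin and BMP 0.06, FGF and ERK 0.02, p53 targets -0.05, glycolysis and hypoxia response -0.03, ribosomal protein -0.09, actin and contractility -0.10, mesoderm and mesenchyme -0.30, and genes of the 20q11.21 segment 0.20 (interval -0.10 to 0.48). Within the WNT list, SFRP1, a secreted antagonist, was at 492 CPM in members and 743 CPM in other WT barcodes. Chromosome by chromosome, the median log2 ratio of measured autosomal genes lay between -0.23 and 0.03.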
